A study of Mus musculus with 4 samples.

Results

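The 10 genes described are a ligand, receptors, feedback inhibitors and targets of the FGF-ERK pathway, together with Myc, in mouse embryos with and without Mettl14. They were chosen by name, and all 10 were found among the 47885 rows of the count table and passed the low-count filter that left 15563 genes for testing. Fgf4 is the ligand, Fgfr1 and Fgfr2 are receptors, Dusp6, Dusp4, Spry2 and Spry4 are feedback inhibitors, Etv4 and Etv5 are transcription factors induced by the pathway, and Myc is a growth regulator that ERK signalling can raise. Each library was made from a single whole embryo of the C57BL/6 background at embryonic day 5.5. The comparison was between 2 embryos labelled Mettl14+/+ (WT) and 2 labelled Mettl14-/- (KO). The genotype was read by qPCR for Mettl14 on amplified cDNA of the same embryos, and the controls were those in which it found the transcript, so a heterozygous control cannot be told from a homozygous one by this assay. Mettl14 is the partner of the m6A methyltransferase Mettl3, and the study asked how its loss affects the epiblast, from which the body of the embryo arises.

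In the egg cylinder the epiblast secretes FGF4. The ligand binds FGF receptors with heparan sulphate, and the RAS-RAF-MEK-ERK cascade carries the signal to the nucleus. In the extraembryonic ectoderm FGF4 acts through FGFR2 to keep trophoblast progenitors dividing, while in the epiblast itself ERK signalling drives the exit from the naive state. Active ERK induces its own inhibitors, the DUSP phosphatases and Sprouty proteins, and the ETS factors ETV4 and ETV5, so these transcripts are widely used as readouts of the pathway. MYC binds DNA as a dimer with MAX and promotes ribosome production and cell growth, and its short-lived mRNA is a known carrier of m6A.

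The libraries held between 16108062 and 28698541 counts, and a single count was worth 0.0359 to 0.059 CPM, the count scaled to the size of the library. Mettl14 stood at 34 and 31.6 CPM in WT replicates 1 and 2, and at 4.63 and 8.04 CPM in KO replicates 1 and 2. The epiblast markers of a fixed list summed to 3410 to 3445 CPM in WT and to 2634 to 3509 in KO, with all 10 detected. The sum hid both directions: 6 had lower and 4 higher values in KO. With no overlap between the groups, 4 were lower and 2 higher (18.8% and 19.4% of all genes tested). The extraembryonic ectoderm markers summed to 726 to 835 CPM in WT and 729.7 to 1178 in KO. Again all 10 were detected, 6 with higher and 4 with lower values in KO. Visceral endoderm markers summed to 767 and 2132 CPM in WT and to 299 and 408 in KO, and 11 of 12 had lower values in KO. Markers of the ectoplacental cone and trophoblast giant cells summed to 377 and 577 CPM in WT and to 1846 and 1039 in KO; 6 of 10 were tested, all with higher values in KO, while Tpbpa, Prl2c2, Prl3b1 and Cts7 had 0 counts in every library. Parietal endoderm markers ranged from 387 to 1035 CPM in WT and from 596 to 637 in KO. Markers of the maternal decidua summed to 20.8 and 28.8 CPM in WT against 6.47 and 5.99 in KO, with Hoxa11 at 0, and blood and immune markers to at most 5.71 CPM in any library, with Hbb-bs, Lyz2 and C1qa at 0. In whole embryos, fewer cells of a type and less RNA per cell cannot be told apart.

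Myc had the largest difference of the 10 genes: both KO embryos lay above both WT embryos, with a fitted difference of 2.54-fold, and it was the only one of the 10 to pass any of the tests run. The ligand Fgf4 and the phosphatase Dusp6 had nearly equal means in the genotypes. Dusp4 had lower values in both KO embryos and Fgfr1 higher ones. Fgfr2, Spry2, Spry4, Etv4 and Etv5, like Fgf4 and Dusp6, varied more between embryos of 1 genotype than between the genotype means. KO was compared with WT by the quasi-likelihood test of edgeR, with adjustment over all 15563 genes. The test called 0 genes in either direction (0% of those tested; smallest adjusted p = 0.245), and 1217 genes (7.82%) had an unadjusted p under 0.05. DESeq2 called 240 of 14959 genes, which is 1.60%, with 1.0% higher and 0.602% lower in KO, and the test of limma-voom called 0. Mettl14, the targeted gene, had an adjusted p of 0.274 in edgeR and 0.000418 in DESeq2. Of the members, edgeR called 0, DESeq2 called 1 (Myc, higher) and limma-voom 0; 1 member, Myc, had an unadjusted edgeR p under 0.05, in the higher direction (4.74% of all genes were higher and 3.08% lower at this level). Myc and Fgfr1 were higher and Dusp4 lower in KO with no overlap between the groups. That made 3 of 10 members, against 38.2% of all genes tested (19.4% higher and 18.8% lower), so the share was near the background.

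**Figure D1:**
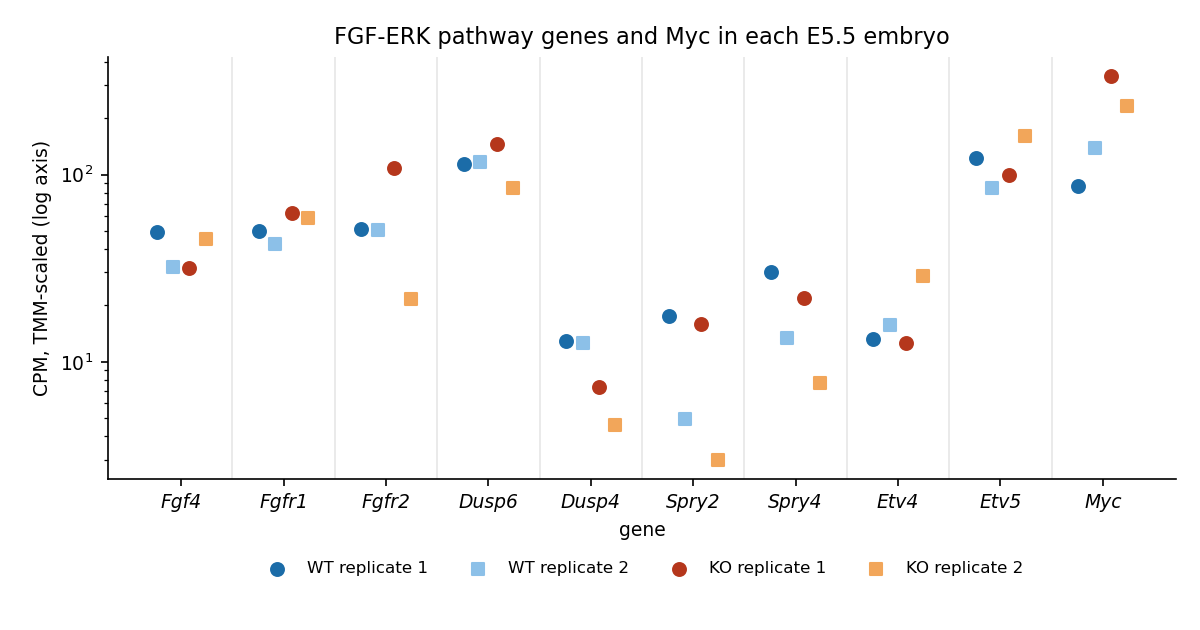
CPM of the 10 genes (log axis) in each of the 4 embryos, with blue for WT, red and orange for KO, circles for replicate 1 and squares for replicate 2; each point is 1 embryo. Myc at 336 and 233 CPM in KO lay above 86.7 and 138 in WT. Spry2 and Spry4 separated replicate 1 from replicate 2 in both genotypes, as did Fgfr2 narrowly and Etv4 in the opposite order.

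Myc (ENSMUSG00000022346, chromosome 15, 61985391 to 61990374 on mm10, plus strand) was measured at 86.7 and 138 CPM in WT replicates 1 and 2, and at 336 and 233 CPM in KO replicates 1 and 2. The lowest KO embryo thus exceeded the highest WT embryo, and the spread within each genotype (1.59-fold in WT and 1.45-fold in KO) was smaller than the difference between the means. The group means were 112 ± 36.1 CPM in WT against 285 ± 73.3 in KO (SD, n = 2). The log2 fold change was 1.34 (standard error, SE, 0.36), with an unadjusted p of 0.00547 in edgeR. After adjustment edgeR gave 0.391, DESeq2 0.0383 and limma-voom 0.409, so the call rested on the tool. By rank of p, Myc was 218th of the 15563 genes tested. With no low-count filter edgeR called it too (there 1.02% of all genes were called, 0.619% higher and 0.398% lower). The log2 fold change lay between 1.05 and 1.73 with each embryo left out in turn, and Myc did not pass in any of those 4 fits. The summed ectoplacental cone and giant cell markers given above were also higher in both KO embryos; their part in the Myc difference was not tested.

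The letters GGACT, a common form of the sequence at which the Mettl3-Mettl14 complex methylates adenosine, were searched in 1 coding transcript per gene (sense strand, GENCODE M21). Myc is the member with the clearest difference in a study of the m6A writer, and its matches are therefore shown, with GGACT in capitals and 8 bases on each side. They read 5′ to 3′ on the plus strand of mm10.
Myc 5′ UTR, chr15:61985806-61985826: ccaggacaGGACTccccaggc
Myc coding, chr15:61987909-61987929: atcatccaGGACTgtatgtgg
Myc coding, chr15:61988176-61988196: ccttcctcGGACTcgctgctg
Myc coding, chr15:61989531-61989551: acaaggaaGGACTatccagct
Myc coding, chr15:61989831-61989851: tctgaaaaGGACTtattgagg
Myc 3′ UTR, chr15:61990032-61990052: gggctttgGGACTgtaagctt
These 6 matches in 2338 bases made 2.57 per kilobase, a higher density than in 94.9% of 21901 coding genes, whose median was 1.01. At least 1 match was present in 87.2% of those genes. Methylation itself was not among the values used, so a match is only a place where the letters occur.

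Across the other members the same letters occurred 0.418 (Etv4) to 3.35 times (Spry2) per kilobase, and 8 of the 10 members exceeded the median density of all coding genes. The density did not order the members as their fold changes did. Dusp6, at 2.86 per kilobase, had a log2 fold change of -0.01, Dusp4, at 2.19, had -1.09, and Myc, at 2.57, had 1.34. Fgf4, with 4 matches in 3030 bases (1.32 per kilobase), is given for contrast, as the ligand whose mean level hardly differed between the genotypes.
Fgf4 5′ UTR, chr7:144861386-144861404: gcgcggGGACTatcccgcc
Fgf4 coding, chr7:144861706-144861726: ggcgcaggGGACTacctgctg
Fgf4 3′ UTR, chr7:144863528-144863548: ccatttttGGACTggccaaca
Fgf4 3′ UTR, chr7:144865186-144865206: agccccatGGACTgatgggaa

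Fgf4 (ENSMUSG00000050917, chromosome 7, 144847367 to 144865243, plus strand) was at 49.4 and 32.2 CPM in WT against 31.7 and 45.5 CPM in KO. The groups overlapped, with WT replicate 1 highest and KO replicate 1 lowest. Means were 40.8 ± 12.2 CPM in WT against 38.6 ± 9.71 in KO (SD, n = 2), and the log2 fold change was -0.08 (SE 0.40, edgeR adjusted p = 0.986). Its sign changed with the embryos used: the value was 0.29 without WT replicate 1 and -0.35 without KO replicate 2. Among the 7894 named genes with a mean of at least 10 CPM, the profiles nearest to that of Fgf4 over the 4 embryos were those of Patz1, Gpatch1, Ifitm2 and Ints5. Their Euclidean distances on centred log2 CPM were 0.108 to 0.135. Among the members, Etv5 was the nearest to Fgf4 at 0.413 and Spry2 the farthest at 2.23. For Myc the nearest were Gch1, Fam89a, Cd82 and Krt8, at distances of 0.0927 to 0.187. Krt8, a keratin of simple epithelia including trophoblast, had 135 and 248 CPM in WT against 516 and 394 in KO.

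The receptors behaved differently from each other in the KO embryos. Fgfr1 (ENSMUSG00000031565, chromosome 8, 25513654 to 25575718, plus strand), the main FGF receptor of the epiblast, was at 49.8 and 42.7 CPM in WT against 62.1 and 58.9 CPM in KO. Both KO values lay above both WT values, by a margin smaller than that of Myc. The log2 fold change was 0.39 (SE 0.33, edgeR adjusted p = 0.87) and ran from 0.29 to 0.52 with 1 embryo left out. Exons of Fgfr1 overlap 164 bases of Gm16159 on the opposite strand.

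Fgfr2 (ENSMUSG00000030849, chromosome 7, 130162451 to 133123350, minus strand), the receptor of FGF4 in trophoblast progenitors, was at 50.9 and 50.8 CPM in the WT embryos. In KO it was at 108 CPM in replicate 1 and 21.7 in replicate 2. The KO embryos lay on opposite sides of the WT embryos and differed 4.98-fold, while the WT embryos were nearly equal. The log2 fold change of 0.35 (SE 0.64, edgeR adjusted p = 0.957) averaged these opposite values: it was 1.10 without KO replicate 2 and -1.15 without KO replicate 1. The extraembryonic ectoderm markers summed to 1178 CPM in KO replicate 1 and 729.7 in KO replicate 2, against 726 and 835 in WT. Their sum was thus above WT in KO replicate 1 and within the WT range in KO replicate 2. The part of these markers in the Fgfr2 values was not tested. Relative to the mean of these markers in the same embryo, Fgfr2 stood at 0.11 and -0.03 log2 units in WT and at 0.57 and -0.84 in KO, with the KO embryos on either side of the WT embryos. The annotated gene shares 314 bases of exon with Ctbp2 on the same strand, which makes its count uncertain.

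Among the ERK phosphatases, Dusp6 and Dusp4 did not share a pattern. Dusp6 (ENSMUSG00000019960, chromosome 10, 99263231 to 99267489, plus strand), which dephosphorylates ERK in the cytoplasm, was at 114 and 116 CPM in WT against 145 and 84.5 in KO. The WT embryos were nearly equal and the KO embryos lay on either side of them. Its log2 fold change was -0.01 (SE 0.36, edgeR adjusted p = 0.999), 0.34 without KO replicate 2 and -0.37 without KO replicate 1. Dusp4 (ENSMUSG00000031530, chromosome 8, 34807297 to 34819894, plus strand), a nuclear ERK phosphatase, was at 13 and 12.6 CPM in WT against 7.37 and 4.63 CPM in KO. Both KO embryos lay below both WT embryos. The counts behind these values were 220 and 235 in WT and 156 and 129 in KO. Means were 12.8 ± 0.291 CPM and 6.00 ± 1.94 (SD, n = 2), a log2 fold change of -1.09 (SE 0.48). The unadjusted p was 0.0535, and edgeR gave 0.648 and DESeq2 0.554 after adjustment. With each embryo left out in turn the log2 fold change ran from -1.38 to -0.78. Since the groups did not overlap, its sign could hardly change. Visceral endoderm markers were also lower in both KO embryos. Their part in the Dusp4 difference was not tested.

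The Sprouty genes, which encode inhibitors of receptor signalling upstream of ERK, differed mainly between embryos of the same genotype. Spry2 (ENSMUSG00000022114, chromosome 14, 105891947 to 105896819, minus strand) was at 17.5 and 4.97 CPM in WT against 15.9 and 3.01 CPM in KO. Spry4 (ENSMUSG00000024427) was at 30.1 and 13.4 CPM in WT against 21.8 and 7.71 CPM in KO. For both genes each embryo numbered 1 lay above each embryo numbered 2, whatever the genotype. The 2 embryos of a genotype differed 3.51-fold (WT) and 5.26-fold (KO) for Spry2, and 2.24-fold and 2.83-fold for Spry4. The log2 fold changes were -0.25 (SE 0.84) and -0.56 (SE 0.61), with edgeR adjusted p of 0.979 and 0.905. Both changed sign when WT replicate 1 was left out (0.90 and 0.13). Without KO replicate 1 they were -1.81 and -1.41. Among all genes tested, 23.6% had both embryos numbered 1 above both numbered 2, and the labels do not say that a number marks a shared litter or day.

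The ETS factors were both highest in KO replicate 2. Etv4 (ENSMUSG00000017724, chromosome 11, 101769742 to 101785371, minus strand) was at 13.3 and 15.7 CPM in WT against 12.6 and 28.8 CPM in KO. KO replicate 1 was the lowest of the 4 embryos. Its log2 fold change was 0.52 (SE 0.49, edgeR adjusted p = 0.891), and it was -0.19 without KO replicate 2. Etv5 (ENSMUSG00000013089, chromosome 16, 22381309 to 22439719, minus strand), which is active in naive and primed pluripotent cells, was at 122 and 84.4 CPM in WT against 100 and 160.3 CPM in KO. The groups overlapped, since KO replicate 1 lay between the WT embryos. Its log2 fold change was 0.34 (SE 0.37, edgeR adjusted p = 0.907), and -0.03 without KO replicate 2. KO replicate 2 thus held the highest Etv4 and Etv5 and, at the same time, the lowest Spry2, Spry4, Dusp4, Dusp6 and Fgfr2 of the 4 embryos. The ERK readouts of this embryo did not move together. Epiblast markers summed to 3509 CPM in KO replicate 2 and 2634 in KO replicate 1; the part of this difference in the Etv4 and Etv5 values was not tested.

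**Figure D2:**
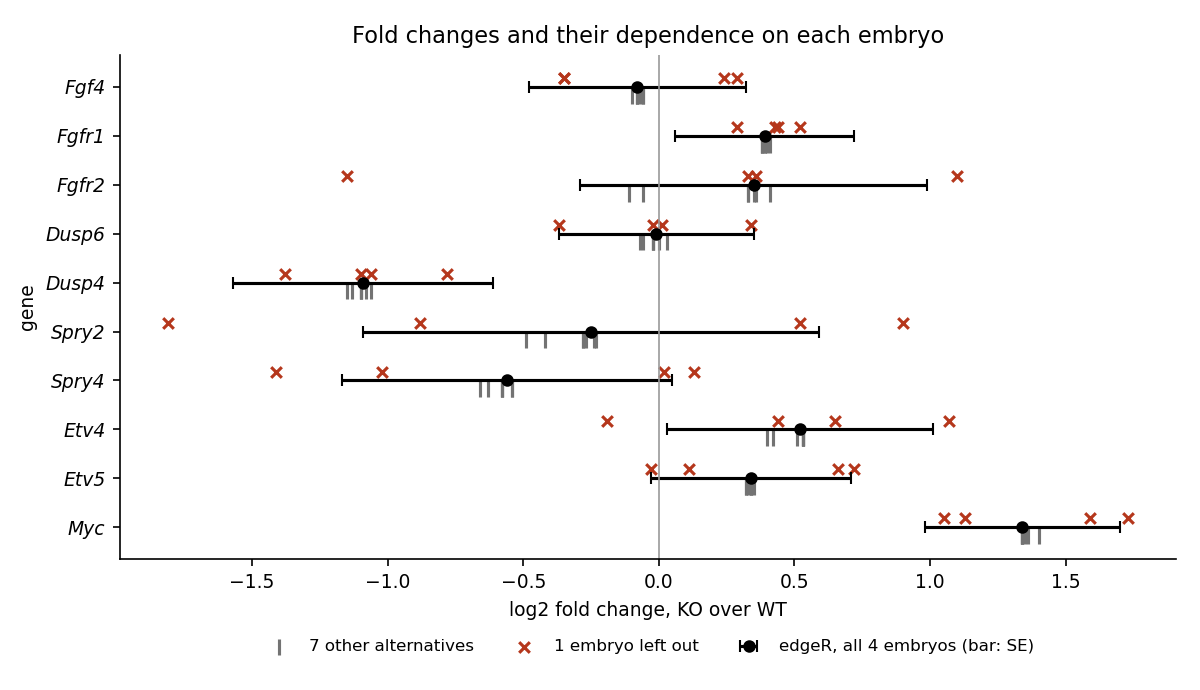
Log2 fold change of KO over WT for the 10 genes: black points with bars are the edgeR estimate and its SE over 4 embryos, crosses the fits with 1 embryo left out, and grey ticks the 7 other alternatives. With 1 embryo left out Myc ran from 1.05 to 1.73, Dusp4 from -1.38 to -0.78 and Fgfr1 from 0.29 to 0.52. The groups of these genes did not overlap, so dropping 1 embryo could hardly change their sign. Spry2 ran from -1.81 to 0.90 and Fgfr2 from -1.15 to 1.10.

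Promoter windows (250 bases before to 50 after a start site, RefSeq, GRCm38.p6) were at hand for 5 members in 6 windows. CCGGAA, the core of many ETS factor sites, was searched on both strands. It occurred in 1 of the 6 windows, that of Spry2, and in 14.9% of all 32851 windows. The match is shown because Spry2 is a feedback gene and ETV4 and ETV5 are ETS factors. It begins 33 bases after the start site, and the sequence is on the minus strand with the match in capitals.
Spry2, chr14:105896770-105896798: aggtcatctatcCCGGAAtccgggagggt
CACGTG, the E-box bound by MYC and MAX, occurred in 1 of the 6 windows, that of Fgfr2, and in 7.15% of all windows; it reads the same on both strands. CArG boxes, the binding sequence of SRF, occurred in none of the 6 and in 1.63% of all windows.

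Levels of different genes were compared per length, as TPM, which are counts per exonic kilobase, scaled to 1 sum in every library. Over the 4 embryos Myc had the highest mean TPM at 199, followed by Dusp6 at 101, Etv5 at 77.4 and Fgf4 at 34. Fgfr2, Etv4, Fgfr1, Spry2, Spry4 and Dusp4 had mean TPM of 15.5, 15.3, 14.8, 13.9, 10.7 and 9.38. In WT, Myc (92.6 and 130.0 TPM) lay close to Dusp6 (106 and 95.2 TPM), and in KO it was at 352 and 222 TPM. Etv5 and Fgf4 were the only neighbours in this order whose ranges over the embryos were apart (52.8 to 101 TPM against 25.8 to 44.9). All other neighbours overlapped, so the order among the lower 6 is not resolved. With the longest transcript as the length, Fgfr2 (26.9 TPM) and Fgf4 (26.5 TPM) exchanged places, as did Fgfr1 (21.5 TPM) and Etv4 (14.7 TPM).

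Each member was also set against tissue markers of the same embryo, as its log2 CPM minus the mean log2 CPM of 10 markers. Against the epiblast markers, Myc stood at -0.52 and -0.08 in the WT embryos and at 1.79 and 0.72 in the KO embryos, a difference of 1.55 log2 units. Against the extraembryonic ectoderm markers it stood at 0.87 and 1.41 in WT and at 2.21 and 2.58 in KO, a difference of 1.25. The groups did not overlap in either comparison. No such value was computed against the ectoplacental cone and giant cell markers, which were higher in both KO embryos. Dusp4 was lower in KO relative to both lists as well (by -0.92 and -1.22). Against 12 visceral endoderm markers, most of them lower in KO, Dusp4 stood at -0.48 and -2.16 in WT. In KO it stood at -0.07 and -1.49, a difference of 0.54 with overlapping groups. Against this list every member stood higher in KO on average, by 0.54 (Dusp4) to 3.02 (Myc). The upward shift was therefore not particular to Dusp4. Relative to epiblast markers Fgfr1, Etv4 and Etv5 were higher in both KO embryos, by 0.59, 0.60 and 0.52, and relative to extraembryonic ectoderm markers their groups overlapped. The epiblast marker mean itself differed between embryos, at 6.96 and 7.19 log2 CPM in WT and 6.61 and 7.15 in KO. In CPM, without this reference, the groups of Etv4 and Etv5 overlapped. Fgf4, a transcript of the epiblast, differed by 0.13 against the epiblast markers. Dusp6 differed by -0.17 against the extraembryonic ectoderm markers, with no overlap, but by 0.21 against their median in place of their mean. An exact two-sided permutation test of 2 against 2 embryos cannot give less than p = 0.333, so these values are a description.

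**Figure D3:**
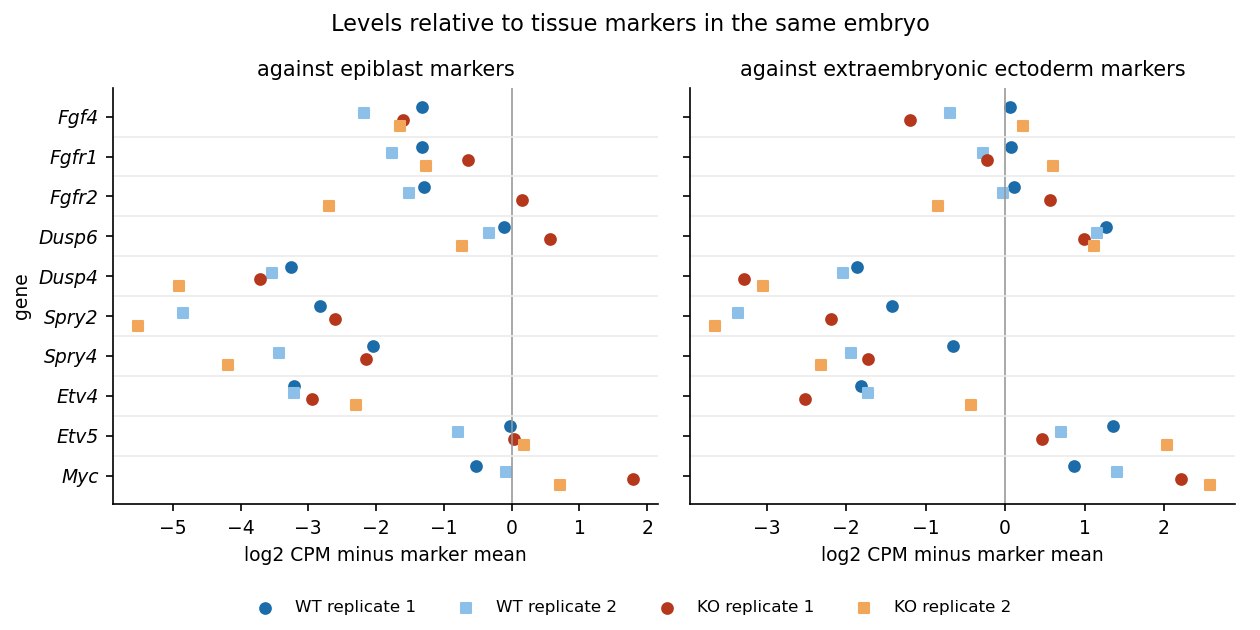
Log2 CPM of each gene minus the mean log2 CPM of 10 epiblast markers (left) or 10 extraembryonic ectoderm markers (right) in the same embryo; each point is 1 embryo and 0 marks the level of the markers. Both KO points of Myc lie to the right of both WT points in each panel, and both KO points of Dusp4 to the left.

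Other genes of the pathway were taken from fixed lists. Over all genes tested 7425 had higher and 8138 lower values in KO, with a median log2 fold change of -0.03. Of 21 other FGF ligands 12 were tested, 7 with higher and 5 with lower values (median 0.62), and edgeR and DESeq2 called 0. That median was -0.14 with at least 50 counts required in 2 libraries and -0.06 without KO replicate 2. Fgf1, Fgf6, Fgf16, Fgf20 and Fgf23 had 0 counts in all libraries. Fgf5, the ligand that marks the primed epiblast, was at 71.2 and 92.9 CPM in WT against 42.7 and 107 in KO. It was named after its values were seen. Fgf8, a ligand needed for gastrulation, had 21.9 and 39.9 CPM in WT against 11 and 13.2 in KO, with no overlap (log2 fold change -1.35, SE 0.45). Fgf10, a mesenchymal ligand, had 4.66 and 12.7 CPM in WT against 0.708 and 2.26 in KO (-2.54, SE 0.80). Fgf15 had 19.6 and 16.2 CPM in WT against 33.8 and 33.0 in KO (0.90, SE 0.37). Fgf18 had 6 and 1 counts in WT against 41 and 82 in KO, a low level in every embryo. The named ligands thus lay in both directions.

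Of 16 other receptors and co-receptors all were tested, 10 with higher and 6 with lower values (median 0.21, but -0.02 without WT replicate 1 and 0.76 without WT replicate 2). DESeq2 called 1 lower and edgeR 0. The called gene was Gpc4, a glypican that carries heparan sulphate, with 36.1 and 37.6 CPM in WT against 8.83 and 10.3 in KO (log2 fold change -1.95, SE 0.39; DESeq2 adjusted p = 0.00157, edgeR adjusted p = 0.276). The WT embryos and the KO embryos were each closely alike for this gene. Sdc1, the syndecan of simple epithelia, had 20.3 and 36.1 CPM in WT against 57.6 and 68.6 in KO (1.16, SE 0.40). Ext2, a polymerase of heparan sulphate chains, had 16 and 18.2 CPM in WT against 29.9 and 36.3 in KO (0.95, SE 0.38). Gpc3, another glypican, had overlapping groups and 146 CPM in WT replicate 2, the embryo with the highest visceral endoderm markers, against 34 to 56.3 in the others. The carriers of heparan sulphate named here therefore had values in both directions.

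The 25 genes of the RAS-RAF-MEK-ERK cascade ran from a log2 fold change of -0.59 to 0.94. There were 14 with higher and 11 with lower values, a median of 0.08 (-0.01 without KO replicate 1 and 0.15 without WT replicate 2), and 0 calls by edgeR or DESeq2. No gene of this list had an unadjusted edgeR p under 0.05. The smallest p belonged to Rps6ka3, an ERK-activated kinase, with 7.66 and 5.56 CPM in WT against 13.1 and 12.2 in KO (log2 fold change 0.94, SE 0.47). Hras (0.71, SE 0.42), the receptor adaptor Frs2 (0.71, SE 0.47) and the kinase gene Araf (0.46, SE 0.33) followed. For Hras and Frs2 the groups overlapped, each with 1 KO embryo high: 451 CPM of Hras in KO replicate 2 and 55.6 CPM of Frs2 in KO replicate 1.

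Other ERK feedback and target genes, 26 of 26 tested, had 14 higher and 12 lower values and a median of 0.36 (0.14 without KO replicate 1). DESeq2 called 3 higher and 0 lower, where 1.0% of all genes were called higher, and edgeR called 0. An unadjusted edgeR p under 0.05 was found for 7, all higher, where 4.74% of all genes were higher at this level. The called genes were Egr1 and Fos, immediate early transcription factors induced by ERK and by many other stimuli, and Dusp14, a phosphatase. Egr1 had 4.42 and 2.40 CPM in WT against 72.2 and 18.8 in KO (log2 fold change 3.74, SE 0.71; DESeq2 adjusted p = 8.69e-07, edgeR adjusted p = 0.274). Fos had 14.1 and 9.83 CPM in WT against 77.7 and 20.8 in KO (2.04, SE 0.62). Both were several times higher in KO replicate 1 than in KO replicate 2. Dusp14 had 24.1 and 34.9 CPM in WT against 65.3 and 98.8 in KO (1.47, SE 0.39). Atxn1l, which encodes a partner of CIC, the repressor of Etv4 and Etv5, had 6.96 and 4.28 CPM in WT against 13.5 and 22.5 in KO (1.68, SE 0.51). Among the members of the same class, the groups of Spry2, Spry4, Dusp6, Etv4 and Etv5 overlapped, and Dusp4 had lower values in both KO embryos.

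**Figure D4:**
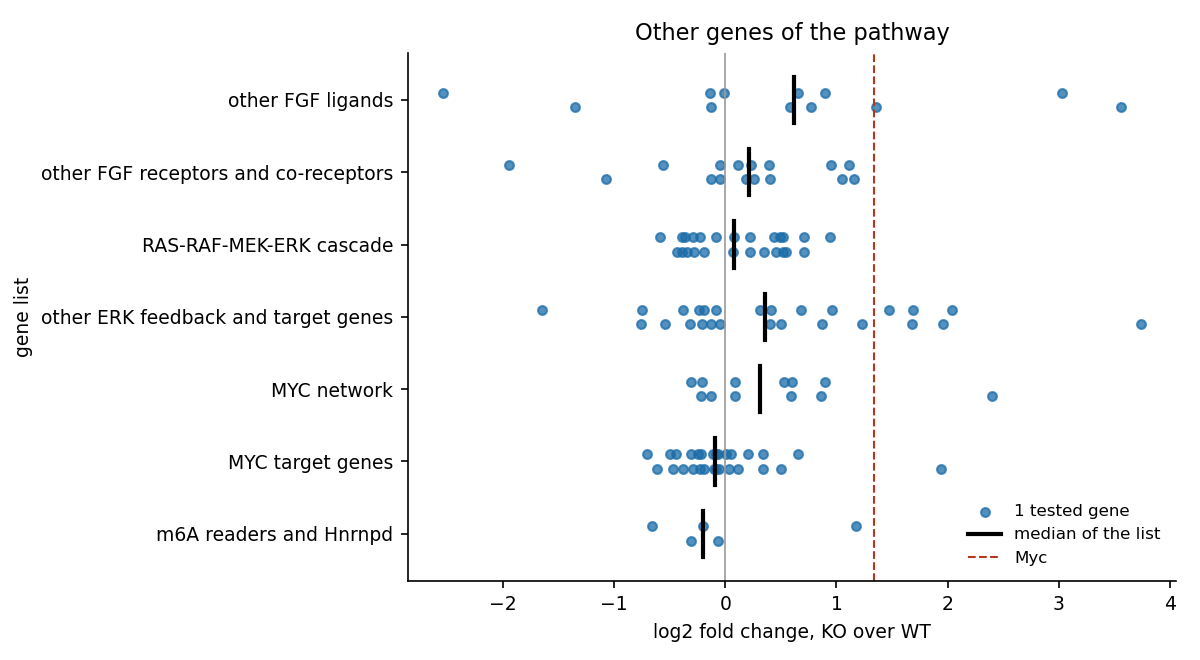
Log2 fold change of KO over WT for each tested gene (blue points) of 7 fixed gene lists, with the median of each list as a black bar and the value of Myc (1.34) as a dashed red line. The MYC target genes have a median of -0.09 and only Ccnd2 among them lies to the right of the dashed line.

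In the MYC network all 12 genes were tested, 8 with higher and 4 with lower values (median 0.31, but 0.15 without KO replicate 2 and 0.58 without WT replicate 1). DESeq2 called 1 higher, Mxd4, and edgeR called 0. Mycn, the MYC paralogue of embryonic cells, had 80.4 and 83.0 CPM in WT against 183 and 122 in KO, with no overlap (log2 fold change 0.90, SE 0.34; DESeq2 adjusted p = 0.309). As for Myc, KO replicate 1 was the higher of the KO embryos. Max, the dimer partner, had 29.5 and 49.1 CPM in WT against 53.3 and 64.8 in KO (0.59, SE 0.39). Mxd4, which binds MAX and represses MYC targets, had 1.89 and 1.92 CPM in WT against 6.85 and 13.2 in KO (2.40, SE 0.60; DESeq2 adjusted p = 0.0341). Mxi1, of the same repressor family, had overlapping groups (0.60, SE 0.45).

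Genes known as MYC targets, mostly of ribosome production and metabolism, had values on both sides of 0. All 28 were tested: 10 had higher and 18 lower values, with a median of -0.09 that ran from -0.23 without KO replicate 2 to -0.03 without KO replicate 1. DESeq2 called 1 higher and 0 lower, and edgeR 0. The called gene was Ccnd2, cyclin D2, with 8.78 and 6.68 CPM in WT against 21.5 and 37.9 in KO (log2 fold change 1.94, SE 0.47; DESeq2 adjusted p = 0.0117). Polr1b, a subunit of RNA polymerase I, had 91.8 and 105 CPM in WT against 151 and 158 in KO (0.65, SE 0.31). Ldha, lactate dehydrogenase A, had lower and overlapping values in KO (-0.70, SE 0.34), and Shmt2, of mitochondrial one-carbon metabolism, had 154 and 189 CPM in WT against 106 and 119 in KO (-0.61, SE 0.31).

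Of 5 genes whose proteins bind Myc mRNA or m6A all were tested, 1 with a higher and 4 with lower values (median -0.20, but -0.08 without KO replicate 1 and -0.13 without WT replicate 1), and edgeR and DESeq2 called 0. Ythdf2, a reader that promotes decay of m6A-marked mRNA, had 124 and 156 CPM in WT against 287 and 349 in KO (log2 fold change 1.18, SE 0.30; DESeq2 adjusted p = 0.0519). Igf2bp2 and Igf2bp3, readers that stabilise Myc mRNA in human cells, differed by -0.20 (SE 0.29) and -0.31 (SE 0.33). Hnrnpd, which binds AU-rich elements, had 407 and 267 CPM in WT against 236 and 192 in KO (-0.66, SE 0.32). For each of these last 3 genes both KO embryos lay below both WT embryos, as they did for 18.8% of all genes tested. The same held for Igf2bp1, at 125 and 127 CPM in WT against 118 and 122 in KO (-0.07, SE 0.30). It was named after its values were seen.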

How the data were processed

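The authors deposited 1 table of raw read counts by gene. TopHat, Cufflinks and mm10 are named in the submitters' processing notes without versions or roles; which program counted the reads, with which annotation and strand setting, is not named in any source used here. The Smart-Seq kit does not mark strand, so antisense overlaps are counted together. Symbols, coordinates and exon lengths came from GENCODE M21 (46574 of 47885 identifiers matched). CPM are counts per TMM-scaled library size.

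KO was compared with WT in edgeR 4.0.16 (R 4.3.3; filterByExpr with minimum count 10 and total 15, TMM, robust quasi-likelihood F test), adjusted after Benjamini and Hochberg over 15563 genes at 0.05. SE is the absolute log2 fold change over the square root of F, so it restates the test. DESeq2 1.42.0 and limma 3.58.1 were alternatives. The fits were tested on simulated data, where DESeq2 made more false calls than edgeR and limma-voom, and more than its threshold allows. The false share of edgeR and limma-voom was also above the threshold, by much less. At every simulated size edgeR recovered fewer of the true changes than DESeq2. It missed nearly all changes of 1 log2 unit and most of 2. A lack of edgeR calls therefore does not show that genes were unchanged. The simulation drew genes independently, with the dispersions that edgeR estimated. There edgeR called genes, while in the real data it called none, so the simulated rates may not hold for these data. Each embryo is a separate animal. A p-value sets the group difference against a variation estimated from these 4 embryos only, with information shared across genes. Log2 CPM used a prior count of 2.

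Members and lists were chosen with earlier results of these data known, and the GGACT search after the values were seen. Besides the members, the 4 genes of smallest p in each list were named, and the 4 nearest in profile to Fgf4 and to Myc.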

Additional observations from a re-analysis of the deposited data

How the results depend on the processing

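The count of genes called was 0 with limma-voom, RLE scaling, library totals and a filter of at least 50 counts in 2 libraries, as in the edgeR fit with all embryos. It was 240 with DESeq2, 258 with no low-count filter, 71 with the replicate block, and 15 to 342 with 1 embryo left out. The count of members called was 1 (Myc) with DESeq2 and with no low-count filter, and 0 in each of the other 9 alternatives; the cause was not tested. The adjusted p of Myc ran from 0.0293 to 0.96 over the 11 alternatives. Leaving out 1 embryo leaves the other embryo of that genotype alone, which is then assumed to vary like the other group.

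With 1 embryo left out, the log2 fold change ran from -0.35 to 0.29 for Fgf4 (0.24 without KO replicate 1), from -1.15 to 1.10 for Fgfr2, from -0.37 to 0.34 for Dusp6 (0.01 without WT replicate 2), from -1.81 to 0.90 for Spry2 (0.52 without KO replicate 2), from -1.41 to 0.13 for Spry4 (0.02 without KO replicate 2), from -0.19 to 1.07 for Etv4 and from -0.03 to 0.72 for Etv5. Fgfr2 also changed sign with limma-voom (-0.11) and the replicate block (-0.06), and Dusp6 with library totals (0.03) and no low-count filter (0.00).

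The replicate numbers are not said to mark a litter or day. Across genes, the difference between the WT embryos correlated at 0.329 with that between the KO embryos. The block called no member; Myc stood at an adjusted p of 0.104.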
